A study of Mus musculus with 4 samples.

Results

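The 10 genes described here code for brakes on T-cell activation that act on RNA or on protein: the Roquin genes Rc3h1 and Rc3h2, the Regnase-1 gene Zc3h12a, the ZFP36 genes Zfp36, Zfp36l1 and Zfp36l2, the E3 ubiquitin ligase genes Cblb, Itch and Peli1, and Ndfip1, which codes for an adaptor of Itch. They were chosen by symbol out of the 54752 genes listed. The study asked how loss of the kinases MEK1 and MEK2, which activate ERK downstream of the T-cell receptor, changes the differentiation of T follicular helper (Tfh) cells, the CD4+ T cells that help B cells in germinal centres. RNA was sequenced from 2 libraries of WT and 2 libraries of Mek1/2-tKO cells. The Mek1/2-tKO mice were Cd4-Cre+ and carried floxed alleles of both kinase genes (Map2k1 fl/fl and Map2k2 fl/fl) on the C57BL/6 background, so that these are deleted where the Cd4 promoter drives Cre, which takes in CD8 as well as CD4 T cells, and the WT mice were littermates whose Cre status is not given in the sources used here. The age of the mice is also not given there. In both groups naïve splenic CD4+ T cells were stimulated for 3 days through CD3 and CD28 with IL-6 and with blocking antibodies to TGF-β, IFN-γ, IL-4 and IL-2, and viable cells were sorted before RNA was extracted. The labels do not say that the libraries of a group came from separate mice or cultures, so the p-values measure the spread between these samples, which may be technical. The libraries held 18858860 and 18807774 counts in WT and 16330802 and 18931090 in Mek1/2-tKO.

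Roquin and Regnase proteins bind short stem-loops in the 3′ untranslated region of messenger RNAs of activated T cells, and ZFP36 proteins bind AU-rich elements there; both routes recruit nucleases or deadenylases and shorten the life of the RNA. Cbl-b, Itch and Peli1 attach ubiquitin to proteins that carry the signal of the T-cell receptor or of its co-receptors, and Ndfip1 brings Itch and its relatives to their substrates. Mice that lack one of several of these genes are known for overactive T cells, and a mutant Roquin-1 is known for an excess of Tfh cells.

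The targeted genes and the cell type were read first. Map2k1, the MEK1 gene, had 182 and 187 CPM (the counts of a gene scaled to the size of its library) in WT and 98.0 and 105 CPM in Mek1/2-tKO, and fell by 0.86 on the log2 scale (standard error, SE, 0.08, adjusted p = 1.29e-06 in edgeR's quasi-likelihood test). Map2k2, the MEK2 gene, had 155 and 165 CPM in WT and 172 and 182 CPM in Mek1/2-tKO, a log2 fold change of 0.15 that did not pass (adjusted p = 0.126 in edgeR's quasi-likelihood test). A count over a whole gene cannot separate a transcript that lacks the floxed exons from a complete one. Of 10 T-cell identity markers, 1 was higher and 4 were lower, Cd4 and Cd28 among the latter. The higher marker was Thy1, with 561 and 574 CPM in WT and 1021 and 998 CPM in Mek1/2-tKO. Trbc2 was the most abundant per kilobase of exon in every library. The summed level of the 10 markers was 2608 and 2592 CPM in WT and 2546 and 2378 CPM in Mek1/2-tKO. The rise of Thy1 is part of that sum, so its near-equal values do not show an equal T-cell content. Cd4 itself, the gene of the co-receptor that defines the labelled cell type, had 297 and 289 CPM in WT and 18.8 and 25.1 CPM in Mek1/2-tKO. Markers of other cells were higher in Mek1/2-tKO. All 12 B-lineage markers were higher, with a summed level of 1259 and 1242 CPM in WT and 6626 and 6561 CPM in Mek1/2-tKO, and Ighm was the most abundant per kilobase. All 7 NK-cell markers were higher (43.6 and 40.7 against 212 and 186 CPM, Gzma the most abundant per kilobase), as were all 6 gamma-delta T-cell markers (21.9 and 22.2 against 289 and 281 CPM; per kilobase Blk, which is also a B-lineage marker, was the most abundant in WT and Tcrg-C2 in Mek1/2-tKO) and both CD8 T-cell markers (67.4 and 59.3 against 238 and 214 CPM, Cd8b1 the more abundant per kilobase). Of 8 myeloid markers 5 could be tested and all 5 were higher (1.33 and 2.07 against 23.6 and 16.5 CPM over the 8, Lyz2 the most abundant per kilobase in Mek1/2-tKO), and S100a8, Siglech and Adgre1 were at 0 counts in both WT libraries. The part of these other markers in the values below was not tested. Both Mek1/2-tKO libraries shared the low Cd4 level, so no comparison without it could be made. In bulk samples fewer cells of a type and less RNA per cell cannot be told apart.

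All 10 brake genes had enough counts to be tested, with 256 to 5420 counts in a library. Calls required a change of 1.5-fold or more together with an adjusted p below 0.05. Zfp36 and Zfp36l1 rose and Rc3h1, Zfp36l2 and Cblb fell in Mek1/2-tKO cells, while Rc3h2, Zc3h12a, Itch, Peli1 and Ndfip1 were not called. Thus 50% of the brake genes were called, against 35.8% of the 14330 genes tested, of which 19.3% were higher and 16.4% lower. The adjusted p alone was under 0.05 for 8 of the 10, against 55% of all genes tested. At that threshold 5 of the 10 were lower, against 27.2% of all genes tested. The levels of the genotypes did not overlap for any of the 10, against 78.3% of all genes tested. The median log2 fold change was -0.29 over the 10 genes and 0.02 over all genes tested.

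**Figure D1:**
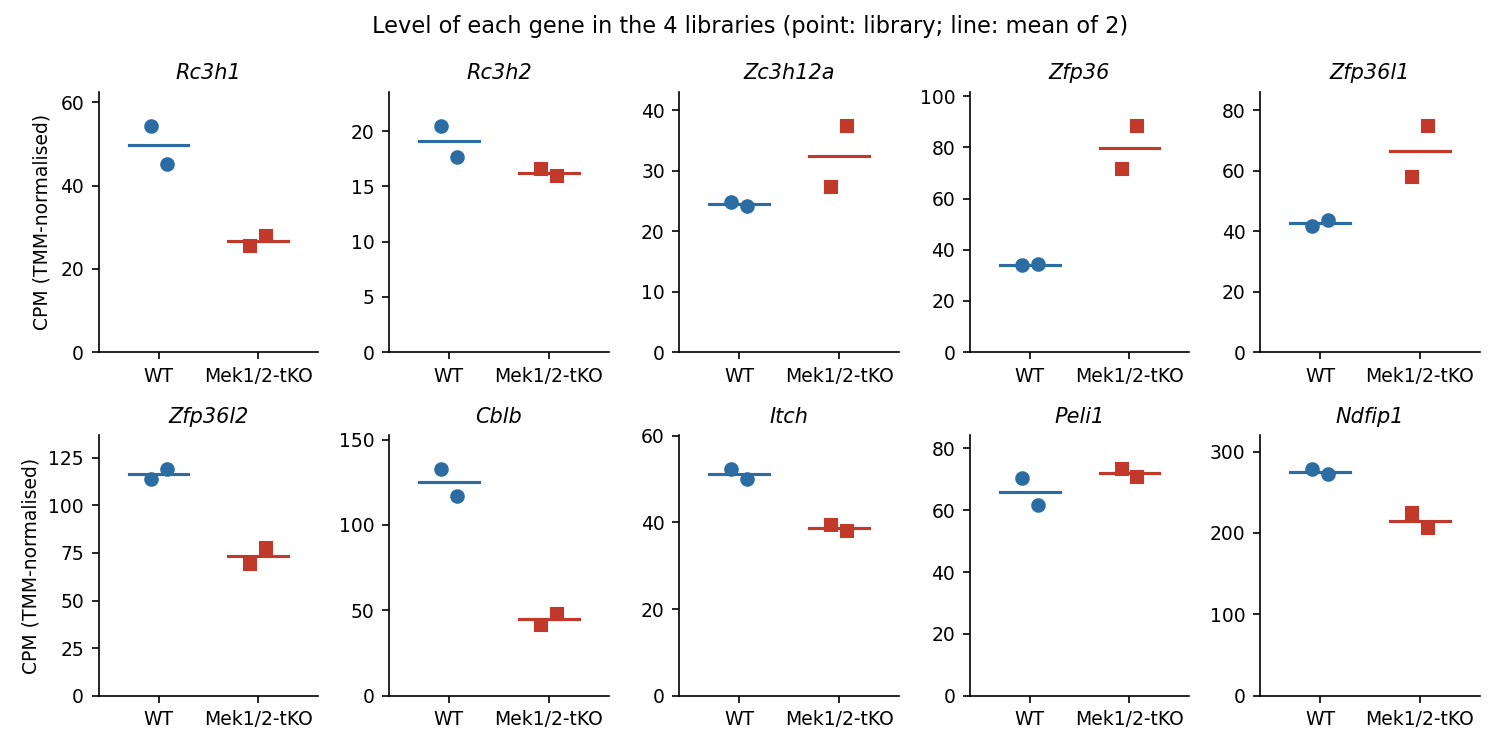
Level of each of the 10 genes in CPM (vertical axes, each from 0), in the 2 WT libraries (circles) and the 2 Mek1/2-tKO libraries (squares). Lines mark the mean of each genotype; the circles and squares of a gene occupy separate ranges in all 10 panels, by a wide margin for Cblb (133 and 117 against 41.5 and 47.9 CPM) and by a narrow one for Peli1 (70.3 and 61.7 against 73.2 and 70.7 CPM).

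The ZFP36 family moved in both directions. Zfp36 codes for tristetraprolin, the founding member, whose gene is induced within minutes of a mitogenic signal in many cells. Zfp36 (ENSMUSG00000044786.6, chr7:28376784-28380253, minus strand, GRCm38) had 33.9 and 34.3 CPM in the WT libraries and 71.4 and 88.4 CPM in the Mek1/2-tKO libraries. Both Mek1/2-tKO libraries lay far above both WT libraries, and they differed from each other more than the WT libraries did. The WT mean of 34.1 ± 0.292 CPM compared with a Mek1/2-tKO mean of 79.9 ± 12.0 CPM (SD, n = 2 each), a 2.35-fold rise with a log2 fold change of 1.23 (SE 0.12, adjusted p = 1.27e-06 in edgeR's quasi-likelihood test). Of the other genes tested, 12741 had a lower log2 fold change.

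Zfp36l1 (ENSMUSG00000021127.7, chr12:80107754-80113013, minus strand, GRCm38), a paralogue that acts with Zfp36l2 in lymphocyte development, had 41.8 and 43.8 CPM in WT and 58.0 and 74.9 CPM in Mek1/2-tKO. The groups did not overlap, but the Mek1/2-tKO libraries stood farther from each other than the lower of them stood from WT. The log2 fold change was 0.64 (SE 0.12, adjusted p = 6.26e-04 in edgeR's quasi-likelihood test), and 1 library decided the call: without Mek1/2-tKO replicate 2 the log2 fold change was 0.43, which is under the 1.5-fold threshold, as was the 0.56 obtained with scaling by library size alone. A gene on the other strand, Gm26669, shares 55.9% of the exon bases of Zfp36l1, and it had 15 counts over the 4 libraries. Whether the counting used the strand is not given in the sources used here, so the level of Zfp36l1 is uncertain to that extent. The same overlap was 3.60% for Zfp36 and 2.97% for Zfp36l2, and 0 for the other 7 genes.

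Zfp36l2 (ENSMUSG00000045817.8, chr17:84183931-84187947, minus strand, GRCm38) went the other way. It had 114 and 119 CPM in WT and 69.3 and 77.4 CPM in Mek1/2-tKO. Each group was tight, and the gap between them was several times the spread within either. Its mean of 116 ± 3.61 CPM in WT fell to 73.4 ± 5.74 CPM (SD, n = 2 each) in Mek1/2-tKO, and the log2 fold change was -0.66 (SE 0.09, adjusted p = 4.12e-05 in edgeR's quasi-likelihood test).

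The make-up of the family was therefore compared within each library, which needs no scaling between libraries. Levels were set side by side as CPM per kilobase of the deposited exon length. Zfp36l2 made up 57.6 and 57.9% of the family's transcripts in WT and 32.9 and 30.3% in Mek1/2-tKO. Zfp36 went from 17.4 and 17.0% to 34.5 and 35.2%, and Zfp36l1 from 25.0 and 25.2% to 32.5 and 34.6%. By these lengths 1 paralogue held most of the transcripts in both WT libraries, whereas the 3 paralogues held near-equal shares in both Mek1/2-tKO libraries. The lengths were 3470 bases for Zfp36, 2990 for Zfp36l1 and 3530 for Zfp36l2, and that of Zfp36 takes in the whole span of the gene. If its transcript is shorter than that, its true shares are larger, so the shares and the summed level are uncertain. The change of a count ratio between genotypes does not depend on length. The summed level of the family was 56.0 and 58.2 CPM per kilobase in WT and 59.6 and 72.5 in Mek1/2-tKO, so the sum in Mek1/2-tKO replicate 1 lay close to WT. The log2 ratio of Zfp36 counts to Zfp36l2 counts was -1.75 and -1.79 in WT and 0.04 and 0.19 in Mek1/2-tKO, a difference of 1.89. For Zfp36l1 to Zfp36l2 the difference was 1.29, and for Zfp36 to Zfp36l1 it was 0.60. An exact permutation test of 2 libraries against 2 gave p = 0.333 (two-sided) for each ratio, the smallest that this design allows.

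**Figure D2:**
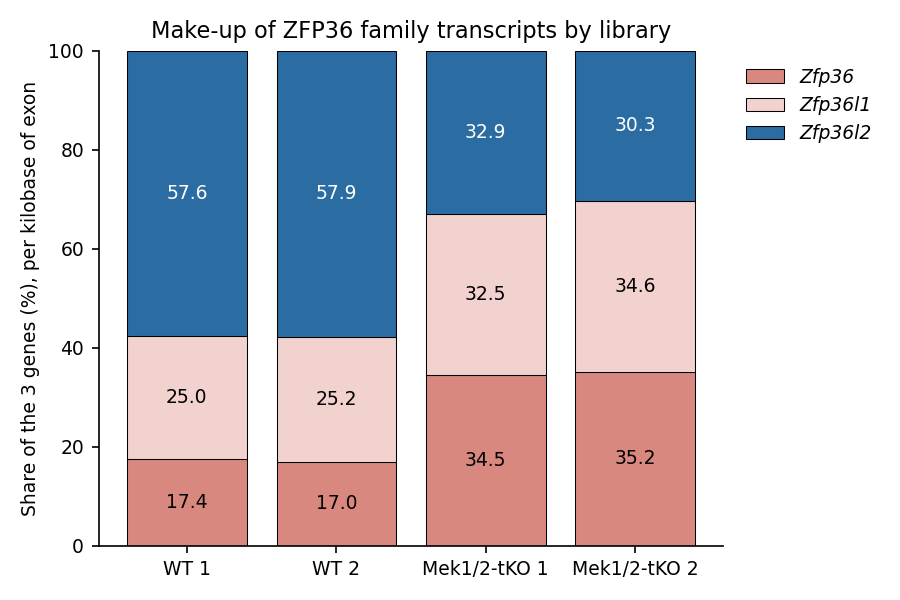
Share of Zfp36, Zfp36l1 and Zfp36l2 in the summed level of the 3 genes (vertical axis, percent, from CPM per kilobase of exon) in each of the 4 libraries (horizontal axis). Zfp36l2 takes 57.6 and 57.9% of the bar in the WT libraries and 32.9 and 30.3% in the Mek1/2-tKO libraries.

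The promoters of Zfp36 and Zfp36l1, the genes that rose, are shown because ERK signalling is known to act on early genes through serum response factor and its ETS partners, and through EGR and AP-1 factors. The RefSeq sequences (GRCm38.p6, 250 bases before to 50 bases after the start, each 300 bases on the gene's strand) lie at chr7:28379179-28379478 and chr12:80112964-80113263, both on the minus strand. Capitals mark matches to GCGGGGGCG (EGR), CCGGAAG (ETS), the CArG box of serum response factor and TGANTCA (AP-1), searched on both strands.
Zfp36 promoter: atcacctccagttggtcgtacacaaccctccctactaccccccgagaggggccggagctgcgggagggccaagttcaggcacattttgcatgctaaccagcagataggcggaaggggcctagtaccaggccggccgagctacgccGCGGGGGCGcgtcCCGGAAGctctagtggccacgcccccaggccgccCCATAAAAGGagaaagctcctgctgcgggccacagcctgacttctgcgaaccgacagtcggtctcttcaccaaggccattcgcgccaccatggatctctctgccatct
Zfp36l1 promoter: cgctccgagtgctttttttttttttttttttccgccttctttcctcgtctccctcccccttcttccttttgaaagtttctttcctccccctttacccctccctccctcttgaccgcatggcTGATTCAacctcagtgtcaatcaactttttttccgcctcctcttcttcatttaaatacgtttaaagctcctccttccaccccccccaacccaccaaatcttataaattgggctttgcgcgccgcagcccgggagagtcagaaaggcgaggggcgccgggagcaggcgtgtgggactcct
In the Zfp36 promoter the EGR letters lay 105, the ETS letters 92 and the CArG box 58 bases before the start, and none of these matches overlapped another. Of 32851 promoters of the same length, 2.91% held the EGR letters, 8.86% the ETS letters and 1.63% a CArG box. The EGR, ETS and CArG letters together were held by 3 promoters (0.00913%), that of Zfp36 among them. This combination is the one found in Zfp36 and no other was counted, so its share is a description and not a test. Zfp36l1 held an AP-1 match, TGATTCA, 129 bases before the start, a motif found in 7.81% of promoters. A match of letters is a description of the sequence and not a binding site.

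The Roquin genes code for RING-finger proteins that recognise stem-loops. Rc3h1 (ENSMUSG00000040423.10, chr1:160906418-160974978, plus strand, GRCm38), the gene of Roquin-1, had 54.3 and 45.2 CPM in WT and 25.6 and 28.0 CPM in Mek1/2-tKO. Every Mek1/2-tKO library was below every WT library, and the WT libraries were the more scattered. Its mean of 49.8 ± 6.49 CPM fell to 26.8 ± 1.68 CPM (SD, n = 2 each), so that WT had 1.86 times the level of Mek1/2-tKO, with a log2 fold change of -0.89 (SE 0.13, adjusted p = 4.30e-05 in edgeR's quasi-likelihood test). Its paralogue Rc3h2 (ENSMUSG00000075376.10, chr2:37370069-37422903, minus strand, GRCm38), the gene of Roquin-2, had 20.5 and 17.7 CPM in WT and 16.5 and 16.0 CPM in Mek1/2-tKO. The groups stood apart by less than the WT libraries differed from each other, and the log2 fold change of -0.23 was not called (SE 0.15, adjusted p = 0.216 in edgeR's quasi-likelihood test). Leaving out a WT library moved this value to -0.13 (replicate 1) or -0.33 (replicate 2).

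Per kilobase, Rc3h1 made up 82.2 and 81.6% of the Roquin pair in WT and 72.9 and 75.2% in Mek1/2-tKO, and the summed level of the pair was 5.85 and 4.90 CPM per kilobase in WT and 3.10 and 3.29 in Mek1/2-tKO. Rc3h1 was thus the more abundant Roquin gene in all 4 libraries, and the sum was lower in both Mek1/2-tKO libraries. These shares rest on the deposited exon lengths, 11308 bases for Rc3h1 and 19624 for Rc3h2. The log2 ratio of Rc3h1 to Rc3h2 counts was 1.41 and 1.35 in WT and 0.63 and 0.81 in Mek1/2-tKO, a difference of -0.66 (two-sided exact permutation p = 0.333, the smallest possible). The RefSeq promoter of Rc3h1 (chr1:160906161-160906460, plus strand, GRCm38.p6) is shown as that of a gene that fell while holding the same AP-1 motif, in capitals, as Zfp36l1, 133 bases before the start.
Rc3h1 promoter: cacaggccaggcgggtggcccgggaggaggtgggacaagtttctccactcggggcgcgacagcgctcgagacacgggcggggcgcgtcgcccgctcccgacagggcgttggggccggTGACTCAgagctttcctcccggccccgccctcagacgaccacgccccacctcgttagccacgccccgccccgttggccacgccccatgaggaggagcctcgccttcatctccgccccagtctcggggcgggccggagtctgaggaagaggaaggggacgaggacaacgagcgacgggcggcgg
The promoters of Rc3h2, Zc3h12a, Peli1 and Cblb held none of the letters searched, so 3 of the 7 promoters at hand held a match. The share of all promoters with a match to any of these motifs was not counted, so this count has no background beside it. The RefSeq promoters of Zfp36l2, Itch and Ndfip1 were not used here.

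Zc3h12a (ENSMUSG00000042677.7, chr4:125118423-125127840, minus strand, GRCm38) codes for Regnase-1, an endonuclease that cuts the stem-loops that Roquin also binds. It had 24.8 and 24.1 CPM in WT and 27.3 and 37.4 CPM in Mek1/2-tKO. The WT libraries were nearly equal, Mek1/2-tKO replicate 1 lay just above them, and Mek1/2-tKO replicate 2 stood apart. The log2 fold change was 0.41 (SE 0.15, adjusted p = 0.0338 in edgeR's quasi-likelihood test), under the fold change threshold. The adjusted p was above 0.05 without either WT replicate, without Mek1/2-tKO replicate 2, with DESeq2 and with scaling by library size alone. Single libraries moved this value by over 1.5 times: it was 0.61 without Mek1/2-tKO replicate 1, which would be called, and 0.15 without Mek1/2-tKO replicate 2.

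Among the ubiquitin ligase genes the change of Cblb stood out in size. Cbl-b is the RING-type ligase that sets the need for CD28 co-stimulation in T-cell activation. Cblb (ENSMUSG00000022637.11, chr16:52031225-52208048, plus strand, GRCm38) had 133 and 117 CPM in WT and 41.5 and 47.9 CPM in Mek1/2-tKO. Both Mek1/2-tKO libraries lay far below both WT libraries. From a WT mean of 125 ± 10.8 CPM it fell to 44.7 ± 4.48 CPM (SD, n = 2 each), so that WT had 2.79 times the level of Mek1/2-tKO, with a log2 fold change of -1.48 (SE 0.11, adjusted p = 7.29e-08 in edgeR's quasi-likelihood test). Of the other genes tested, 543 had a lower log2 fold change. With any 1 library left out it stayed between -1.60 and -1.38. Cd28, the co-receptor gene whose signal Cbl-b opposes, was also lower, with a log2 fold change of -1.99 (SE 0.10, adjusted p = 2.18e-09 in edgeR's quasi-likelihood test). Cd28 is also among the T-cell identity markers that were lower, with Cd4, in the same libraries. The part of cell content in the values of Cblb and Cd28 was not tested.

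Itch (ENSMUSG00000027598.16, chr2:155133509-155226855, plus strand, GRCm38) codes for a HECT-type ligase of the NEDD4 family, and Ndfip1 (ENSMUSG00000024425.3, chromosome 18) for the membrane adaptor that activates it. Itch had 52.2 and 50.0 CPM in WT and 39.5 and 38.0 CPM in Mek1/2-tKO. Ndfip1 had 278 and 273 CPM in WT and 224 and 206 CPM in Mek1/2-tKO. In both genes the libraries of a genotype lay close together and the genotypes stood apart, with the Mek1/2-tKO libraries lower. The log2 fold changes were -0.40 for Itch (SE 0.11, adjusted p = 0.00557) and -0.36 for Ndfip1 (SE 0.08, adjusted p = 0.00130), both in edgeR's quasi-likelihood test, so that both passed on p and neither reached 1.5-fold. Without WT replicate 1 the adjusted p of Itch was 0.0643 in edgeR's quasi-likelihood test.

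Peli1 (ENSMUSG00000020134.13, chr11:21091291-21150323, plus strand, GRCm38) codes for Pellino-1, a ligase that acts on the NF-κB subunit c-Rel in T cells. It had 70.3 and 61.7 CPM in WT and 73.2 and 70.7 CPM in Mek1/2-tKO. The lower Mek1/2-tKO library was only just above the higher WT library. Its log2 fold change of 0.12 was not called (SE 0.10, adjusted p = 0.316 in edgeR's quasi-likelihood test), and it ranged from 0.03 to 0.22 with each library left out in turn.

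**Figure D3:**
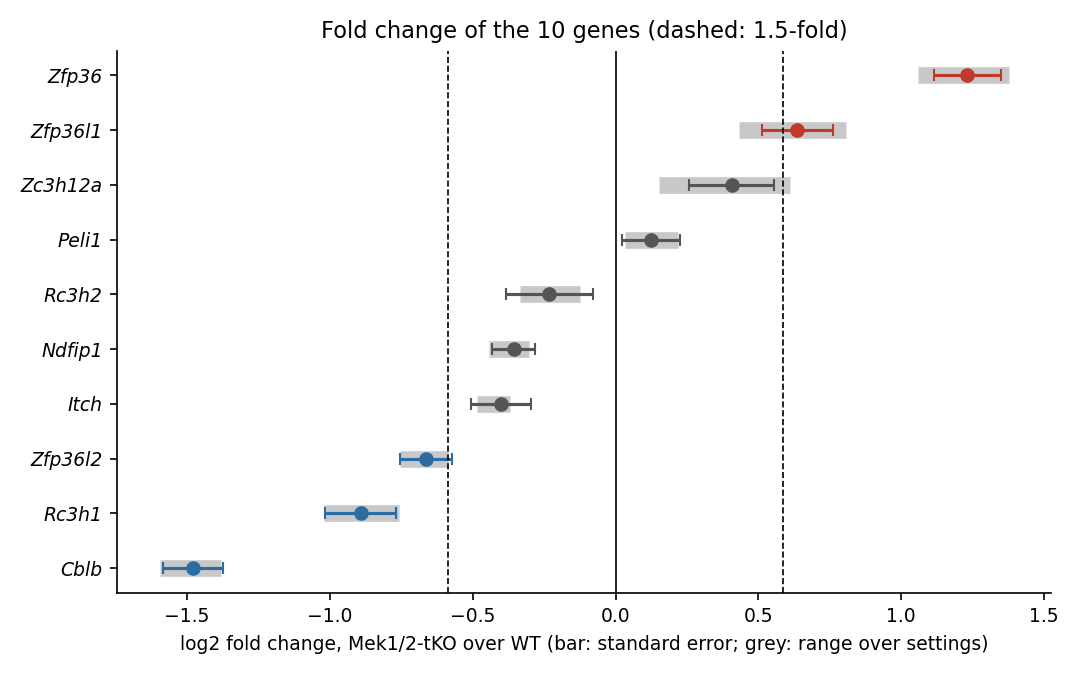
Log2 fold change of Mek1/2-tKO over WT (horizontal axis) for the 10 genes, with its standard error, in order of size. Red points were called higher, blue points lower and grey points were not called; the grey bars span all settings tried, the dashed lines mark 1.5-fold, and the bars of Zfp36l1 (0.43 to 0.81) and Zc3h12a (0.15 to 0.61) cross a dashed line.

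Levels of different genes can be compared only per length. In WT the order from high to low, in mean CPM per kilobase of exon, was Ndfip1 (296), Zfp36l2 (33.0), Zfp36l1 (14.3), Cblb (11.9), Peli1 (10.1), Zfp36 (9.82), Zc3h12a (8.49), Itch (5.27), Rc3h1 (4.40) and Rc3h2 (0.972). Of these neighbours only Peli1 and Zfp36 changed order between the libraries. In Mek1/2-tKO the order was Ndfip1 (231), Zfp36 (23.0), Zfp36l1 (22.2), Zfp36l2 (20.8), Zc3h12a (11.2), Peli1 (11.0), Cblb (4.27), Itch (3.99), Rc3h1 (2.37) and Rc3h2 (0.828). There Zfp36 was the first of the ZFP36 genes in each library, by a small margin, while Zfp36l1 and Zfp36l2, Zc3h12a and Peli1, and Cblb and Itch each changed order between the libraries. Zfp36 moved from below Cblb to above it, and Cblb moved down to the level of Itch. The length of Ndfip1 in the deposited files, 930 bases, is shorter than the 1029 bases of its longest 3′ untranslated region in GENCODE M21, so its level per kilobase is uncertain. That of Zfp36, 3470 bases, takes in the whole span of the gene, so the place of Zfp36 in both orders is uncertain too.

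The targets of the RNA-binding members were taken next, from lists of genes known as targets in the field. Of 12 stem-loop targets of Roquin and Regnase-1, all tested, 3 rose (Il6, Ier3 and Tnf) and 6 fell (Il2, Ctla4, Tnfrsf4, Irf4, Icos and Il2ra), against 19.3% higher and 16.4% lower among all genes tested. Their median log2 fold change was -0.72. Icos, the co-stimulatory receptor gene that is the best known Roquin target in Tfh cells, had 104 and 95.0 CPM in WT and 35.2 and 41.7 CPM in Mek1/2-tKO, a log2 fold change of -1.37 (SE 0.11). Ctla4, an inhibitory receptor gene, had 165 and 156 CPM in WT and 22.7 and 18.4 CPM in Mek1/2-tKO, a log2 fold change of -2.97 (SE 0.11). Tnfrsf4, which codes for the co-stimulatory receptor OX40, had 541 and 537 CPM against 189 and 172 CPM, a log2 fold change of -1.58 (SE 0.08). In these 3 receptor genes every Mek1/2-tKO library was far below WT, in the same libraries in which Rc3h1 was low. Il6, the gene of the cytokine that was added to the cultures, was scarce throughout, with 1.44 and 1.76 CPM in WT and 5.36 and 4.74 CPM in Mek1/2-tKO. The summed level of the 12 genes was 2495 and 2414 CPM in WT and 1133 and 1135 CPM in Mek1/2-tKO.

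The list of 16 AU-rich targets of the ZFP36 proteins, which shares Tnf, Il2 and Ier3 with the list before, had the opposite balance. All 16 were tested, 12 rose, 3 fell and 1 (Nfkbia, which codes for an inhibitor of NF-κB) was not called, against 19.3% higher and 16.4% lower among all genes tested. The list's median log2 fold change was 0.84. The 4 largest rises were those of Ccl3, a chemokine gene (log2 fold change 4.67), Il17a (4.58), Csf2, which codes for GM-CSF (4.28), and Ifng (3.95). Ifng had 127 and 121 CPM in WT and 2054 and 1773 CPM in Mek1/2-tKO, and Csf2 had 5.95 and 10.1 CPM in WT and 174 and 137 CPM in Mek1/2-tKO. The genes that fell were Il2 (-3.17), Lif (-2.04) and Notch1 (-1.27). Il2 had 113 and 111 CPM in WT and 15.6 and 9.64 CPM in Mek1/2-tKO. Cytokine genes of this list thus stood at both ends of the range, with no overlap between the genotypes. The markers of NK, gamma-delta T and CD8 T cells, cells that are known to make IFN-γ, IL-17 or CCL3, were higher in the same libraries (Trdc 1.64 and 1.56 against 57.9 and 53.6 CPM, Cd8a 35.4 and 31.0 against 147 and 130 CPM), and their part in this count was not tested. Before culture, naïve CD4+ T cells had been isolated with a kit, and how many other cells remained is not given in the sources used here. Other genes share 25.9% of the exon bases of Ifng on the same strand and 12% of those of Csf2 on the other strand, so these values are uncertain.

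The element itself was counted in the longest 3′ untranslated region of each gene in GENCODE M21 (GRCm38), as TATTTAT, the DNA letters of the heptamer in AU-rich elements, on the strand of the transcript and with overlapping matches counted. It was present in 13 of the 16 AU-rich targets and in 6 of the 12 stem-loop targets, against 29.9% of the 11505 tested genes with such a region. Tnf, Il2 and Ier3, which are on both lists, held it and are in both counts. The AU-rich list is made of genes known for such elements, so its count is not a test. It was also present in 6 of the 10 brake genes: 3 times each in Rc3h2, Zfp36, Zfp36l1 and Zfp36l2, 2 times each in Rc3h1 and Peli1, and not in Zc3h12a, Cblb, Itch or Ndfip1. At least 2 matches were held by 10.7% of the tested genes. The regions differed in length, from 774 bases in Zfp36 to 7181 bases in Rc3h1, and a longer region has more chances of a match. All 3 ZFP36 genes held the element that their own proteins bind, whether they rose or fell. A window of 29 bases around 1 match is shown for each of them (chr7:28376966-28376994, chr12:80108422-80108450 and chr17:84184914-84184942, all on the minus strand), and for Ifng (chr10:118445323-118445351, plus strand) and Csf2 (chr11:54247362-54247390, minus strand), which rose, and Il2 (chr3:37121051-37121079, minus strand) and Lif (chr11:4270469-4270497, plus strand), which fell. Capitals mark the heptamer.
Zfp36: agtgggcccttTATTTATgacgactttat
Zfp36l1: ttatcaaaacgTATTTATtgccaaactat
Zfp36l2: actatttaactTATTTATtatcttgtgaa
Ifng: aaatctaaaccTATTTATtaatatttaaa
Csf2: agggaccattaTATTTATTTATatattta
Il2: ataaggctctcTATTTATttaaatattta
Lif: gcacagctgtcTATTTATtactatgtcct
In the Csf2 window a pair of matches overlap. Csf2, with 9 matches, rose and Lif, with 5, fell, so genes with several matches were found at both ends.

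The RNA-binding members recruit the enzymes that remove the poly(A) tail and the cap. Of 25 genes of deadenylation, decapping and 5′ to 3′ decay, all tested, 2 rose and 7 fell, with a median log2 fold change of -0.49. The share called, 36.0%, was close to the 35.8% of all genes tested, so the genes below are single values and not a result about the list. With scaling by library size alone, 12 fell. Cnot1, the scaffold of the CCR4-NOT complex that ZFP36 and Roquin proteins bind, had 223 and 217 CPM in WT and 101 and 115 CPM in Mek1/2-tKO, a log2 fold change of -1.02 (SE 0.09, adjusted p = 3.77e-07 in edgeR's quasi-likelihood test). The deadenylase gene Cnot6l (-0.77), Tob2 (-0.77), whose product links the complex to poly(A)-binding protein, and the decapping enzyme gene Dcp2 (-0.74) followed it. The 2 that rose, Btg1 (1.62) and Btg2 (1.36), code for anti-proliferative proteins that activate the deadenylases and are known for keeping naïve T cells quiescent. Btg1 had 193 and 194 CPM in WT and 604 and 590 CPM in Mek1/2-tKO, with near-equal libraries in each group. The summed level of the list was 2048 and 2034 CPM in WT against 1987 and 2049 CPM.

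Of 15 relatives, cofactors and regulators of the decay factors, 14 were tested, 1 rose and 4 fell. The share called, 35.7%, was again close to 35.8%. Without WT replicate 1, without Mek1/2-tKO replicate 2 or with scaling by library size alone, 0 rose. The median log2 fold change was -0.43, and Zfp36l3 had no counts. Zc3h12d, the gene of Regnase-4, had 128 and 125 CPM in WT and 55.4 and 62.1 CPM in Mek1/2-tKO, a log2 fold change of -1.10 (SE 0.09). Arid5a, whose product binds the same stem-loops and protects them from Regnase-1, had 157 and 170 CPM in WT and 75.1 and 87.4 CPM in Mek1/2-tKO, a log2 fold change of -1.01 (SE 0.09). Both genes were low in both Mek1/2-tKO libraries, as Rc3h1 was, whereas Zc3h12a was not. Mapk14 (-0.81), the gene of the p38 kinase whose pathway phosphorylates tristetraprolin, and Upf1 (-0.79), the helicase gene that works with Regnase-1, also fell.

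**Figure D4:**
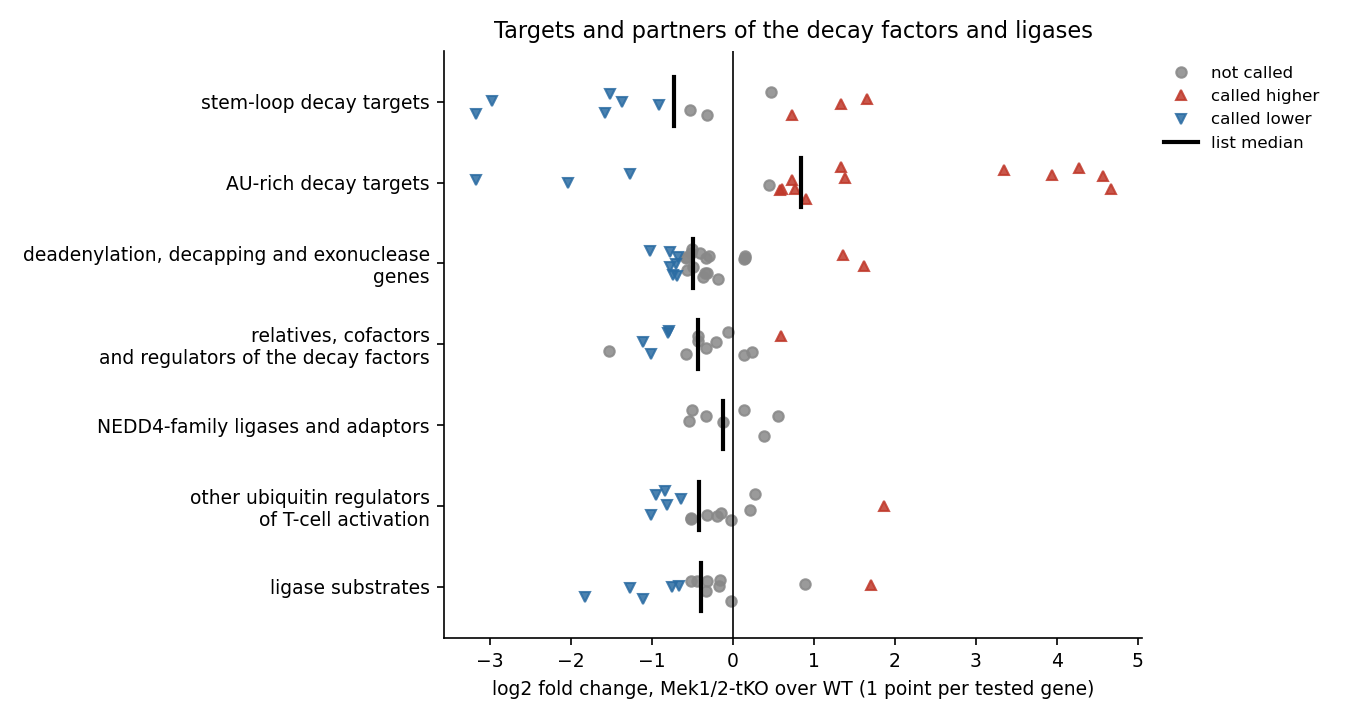
Log2 fold change of Mek1/2-tKO over WT (horizontal axis) of each tested gene in 7 lists of targets and partners of the 10 genes (vertical axis). Triangles are called genes, grey circles are not called and black lines are list medians: 0.84 for the AU-rich targets and below 0 for the other 6 lists.

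The partners of the ligases were described in the same way. None of the 7 tested relatives of Itch and Ndfip1 in the NEDD4 family was called, by edgeR's quasi-likelihood test or by DESeq2 (0 in each), although 5 had an unadjusted p and 4 an adjusted p under 0.05 at any fold, and 35.8% of all genes tested were called. Single libraries moved this count: 2 were lower without WT replicate 2, 1 was lower without Mek1/2-tKO replicate 1, and 1 was higher without WT replicate 1 or without Mek1/2-tKO replicate 2. With scaling by library size alone 2 were lower. Their median log2 fold change was -0.12, the nearest to that of all genes tested among the 7 lists. Ndfip2, the relative of Ndfip1, had 46.2 and 42.3 CPM in WT and 69.8 and 60.4 CPM in Mek1/2-tKO, a log2 fold change of 0.55 just under the threshold, while that of Ndfip1 was below 0.

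Of 17 other ubiquitin regulators of T-cell activation, 14 were tested, 1 rose and 5 fell, with a median log2 fold change of -0.42. The share called, 42.9%, lay near the 35.8% of all genes tested, and 2 rose without WT replicate 2 or without Mek1/2-tKO replicate 2. Cbl, the paralogue of Cblb, had 90.4 and 82.9 CPM in WT and 40.6 and 49.0 CPM in Mek1/2-tKO, a log2 fold change of -0.95 (SE 0.11, adjusted p = 8.68e-06 in edgeR's quasi-likelihood test). Cblb and Cbl were low in both Mek1/2-tKO libraries. Cblc, the remaining Cbl gene, had 0 and 2 counts in WT and 16 and 10 counts in Mek1/2-tKO, too few to be tested. Ubash3b (-1.01), which codes for a phosphatase that dampens receptor signals, Traf6 (-0.84), Fbxw7 (-0.82) and Tnfaip3 (-0.63), the gene of the NF-κB inhibitor A20, fell as well. Dtx1, a ligase gene known from T-cell anergy and a Notch target, had 6.67 and 10.2 CPM in WT and 28.0 and 33.6 CPM in Mek1/2-tKO, a log2 fold change of 1.87 (SE 0.19). Dtx1 is also expressed in B cells, whose markers were higher in the same libraries, and their part in this value was not tested. How many B cells remained after the isolation of naïve CD4+ T cells is not given in the sources used here.

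Of 14 substrates of the ligases, all tested, 1 rose and 5 fell, with a median log2 fold change of -0.39. The 42.9% called again lay near the 35.8% of all genes tested. Plcg1, the gene of the phospholipase that Cbl-b and Itch act on, had 85.6 and 83.5 CPM in WT and 23.8 and 23.9 CPM in Mek1/2-tKO, a log2 fold change of -1.83 (SE 0.10, adjusted p = 8.11e-09 in edgeR's quasi-likelihood test). Notch1 (-1.27), Zap70 (-1.11), which codes for a cytoplasmic kinase recruited to the T-cell receptor, and Prkcq (-0.75), the gene of protein kinase C theta, also fell, and with Cflar (-0.66) they make up the 5. The AP-1 subunits that Itch degrades differed: Jun had 55.5 and 54.6 CPM in WT and 160 and 199 CPM in Mek1/2-tKO, a log2 fold change of 1.71 (SE 0.11), whereas Junb, the most abundant gene of the list per kilobase, had 592 and 616 CPM against 477 and 481 CPM and was not called (log2 fold change -0.34). Cblb and the substrate genes Plcg1, Zap70 and Prkcq were thus low in the same libraries.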

How the data were processed

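The authors trimmed reads with Trimmomatic 0.36, mapped them to GRCm38 with a tool printed as STRA, and deposited raw counts per gene from featureCounts (Subread 1.5.1), without normalization. The annotation release and the strand setting are not given in the sources used here. Symbols were matched to 54723 of 54752 identifiers. The counts were fitted across all genes with the robust quasi-likelihood test of edgeR 4.0.16 (R 4.3.3) after filterByExpr and TMM scaling, with Benjamini-Hochberg adjustment over the 14330 genes tested. Calls required an adjusted p below 0.05 together with a change of 1.5-fold or more. CPM used TMM-scaled library sizes. Replicates differed by more than counting noise (chi-square per gene 4.19 in WT and 10.9 in Mek1/2-tKO). The procedure was tested on simulated data. The alternatives were a likelihood-ratio test, DESeq2 1.42.0, other scalings, filters and thresholds, a replicate block and leaving out each library. The members and all lists were chosen with earlier results of these data known, so no list was tested as a set. Named list genes are the up to 4 called genes with the largest fold in each direction, those named for a count, and the most abundant per kilobase; Cd28, Trbc2, Tcrg-C2, Cd8b1, Cflar, Icos, Il2ra, Nfkbia, Ndfip2, Cblc and Tnfaip3 were added as partners or to complete a count, after their values were seen. One listed gene is counted in its list but is not reported here.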

Additional observations from a re-analysis of the deposited data

How the results depend on the processing

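No brake gene changed direction under any of the alternatives, and Cblb, Zfp36, Rc3h2 and Peli1 kept their call or lack of one under all 13. With a fold change threshold of 2, 1725 genes were called higher and 1040 lower, of which 1 brake gene each (Zfp36 and Cblb), and Rc3h1 (-0.89), Zfp36l1 (0.64) and Zfp36l2 (-0.66) were no longer called. With no fold change threshold, 3903 genes were lower, 5 brake genes among them, and Zc3h12a (0.41), Itch (-0.40) and Ndfip1 (-0.36) were called. With scaling by library size alone the balance of all calls turned, with 2388 genes higher and 2848 lower, and 1 brake gene was higher, since Zfp36l1 (0.56) fell below 1.5-fold. When single libraries were left out, 1 to 3 brake genes were called higher, the log2 fold change of Zfp36l1 ranged from 0.43 to 0.81 and that of Zc3h12a from 0.15 to 0.61, the low end of both being without Mek1/2-tKO replicate 2. With the replicate block, a fit that treats equal replicate numbers as pairs, 2652 genes were higher and 2300 lower, no brake gene changed its call and no list count moved by over 1.5 times. Libraries with the same number did not deviate together (correlation of -0.0262 across genes), so the numbers do not pair them. With 2 libraries per genotype, the p-values rest on a spread fitted across genes, and leaving out a library leaves 1 sample that is assumed to vary like the others.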
